A study of Mus musculus with 6 samples.

Results

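The regulators of G protein signalling (Rgs) examined here were 8 mouse genes, Rgs1, Rgs2, Rgs3, Rgs10, Rgs14, Rgs16, Rgs18 and Rgs19. They were taken by gene symbol from a table of 54532 genes, each symbol matched 1 row, and all 6 libraries were used. The choice did not use their values, but it was made with earlier results of these data known. Poly(A) RNA was sequenced from peritoneal macrophages that 3% thioglycolate had elicited over 5 days in male wild-type C57BL/6J mice aged 6 to 8 weeks. The cells were left untreated (Control), were primed with 500 ng/mL LPS for 5.5 h and then given 2 mM ATP for 0.5 h (Model), or received LPS and ATP in the same way together with 50 μM muscone, the macrocyclic ketone of musk, which was added 5 h after LPS and 0.5 h before ATP (MUS). Each group had 2 libraries, whose replicate number the labels also give as a batch. The sources do not say whether the replicates came from separate animals, so p-values measure the spread between these libraries, which may be technical. No library had muscone without LPS and ATP, so no effect of muscone on unstimulated cells could be read.

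Many cell-surface receptors, including those for chemokines, complement peptides and extracellular nucleotides, signal through heterotrimeric G proteins. A bound ligand makes the receptor load GTP onto the Gα subunit, and Gα-GTP and Gβγ then act on enzymes such as adenylyl cyclase and phospholipase C β. RGS proteins hold an RGS domain that speeds GTP hydrolysis by Gα and so shortens the signal. In leukocytes they are best known for limiting migration and the response to chemokines. Rgs1, Rgs2, Rgs3, Rgs16 and Rgs18 belong to the R4 family of mostly small proteins, Rgs10 and Rgs14 to the R12 family, and Rgs19 (also called GAIP) to the RZ family.

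The level of a gene is given as deposited, in FPKM, the number of fragments per kilobase of gene divided by a per-million scale of the library. This scale was not the fragment total. It was 1.34 and 1.45 times that total in Control and 0.909 to 0.998 times in Model and MUS. Control values therefore stand lower against the others than with fragment-total scaling. Of the 8 genes, 6 reached a mean of at least 1 FPKM and were tested, while Rgs3 and Rgs16 stayed below it and are described from their values, with the p of a fit that had no such filter. Differences were tested with limma on log2(FPKM + 1) over 9794 genes, with Benjamini-Hochberg adjustment over all of them. A gene was a DEG (differentially expressed gene) where its log2 fold change was over 1 in either direction with an adjusted p no higher than 0.05. This scale understates the change of genes with low FPKM. Between 15526321 and 17135442 fragments lay on genes in a library. Model replicate 1 had fragments on 24906 genes against 17406 to 19200 in the other libraries. Control replicate 2 stood apart from Control replicate 1 in inflammatory genes, with 34.2 against 0.550 FPKM of Il1b and 183 against 8.62 FPKM of Tnf, although the Model libraries reached 4750 to 7646 FPKM of Il1b. For the tested genes, differences from Control are therefore also given without this library. All 8 macrophage markers were tested and summed to between 9574 and 14283 FPKM. As DEGs, 2 of them were higher and 1 lower in Model vs. Control, against 9.5% and 5.56% of all genes. In MUS vs. Control 2 were also higher and 1 lower, against 11.3% and 8.91% of all genes. Whether the counting used strand is not given in the sources used here.

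Promoter windows from RefSeq (GRCm38.p6), from 250 bases before to 50 after a start site, were matched for 5 of the 8 genes; Rgs1, Rgs14 and Rgs18 had no entry. The windows of Rgs2, Rgs10 and Rgs16 are shown because these genes have a single window each and their Control and Model libraries did not overlap. They are written 5′ to 3′ on the strand of the gene, and capitals mark matches on either strand to the motifs searched.
Rgs2, chr1:144004100-144004399, minus strand: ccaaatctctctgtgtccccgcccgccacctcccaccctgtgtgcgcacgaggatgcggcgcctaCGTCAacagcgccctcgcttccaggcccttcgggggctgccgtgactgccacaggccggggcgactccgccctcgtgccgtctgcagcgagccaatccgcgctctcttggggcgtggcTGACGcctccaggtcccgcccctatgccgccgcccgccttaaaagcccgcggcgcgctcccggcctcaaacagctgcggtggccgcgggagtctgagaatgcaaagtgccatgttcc
Rgs10, chr7:128418123-128418422, minus strand: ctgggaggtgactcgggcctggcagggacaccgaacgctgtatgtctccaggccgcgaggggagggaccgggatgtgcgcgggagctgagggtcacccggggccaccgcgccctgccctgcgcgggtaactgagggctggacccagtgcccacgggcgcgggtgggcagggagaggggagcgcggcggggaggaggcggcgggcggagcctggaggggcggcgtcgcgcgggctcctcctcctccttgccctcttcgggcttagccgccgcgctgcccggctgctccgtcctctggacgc
Rgs16, chr1:153740103-153740402, plus strand: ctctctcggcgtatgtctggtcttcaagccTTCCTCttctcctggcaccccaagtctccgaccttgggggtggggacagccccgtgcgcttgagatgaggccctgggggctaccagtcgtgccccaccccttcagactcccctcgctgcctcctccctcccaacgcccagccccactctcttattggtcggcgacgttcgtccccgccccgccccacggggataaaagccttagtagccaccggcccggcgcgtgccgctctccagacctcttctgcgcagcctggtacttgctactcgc

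The motifs were the cAMP response element TGACGTCA, its core TGACG, which the full element contains, the AP-1 site TGANTCA, the PU.1 site GAGGAA, the TATA box TATAAA and the 10-letter NF-κB consensus. They were searched on both strands. Counted from the start site as 0, the Rgs2 window held this core at 2 places, from -185 to -181 on the strand opposite to the gene and from -67 to -63 on its own strand. The core occurred in 20.8% of all 32851 windows. The Rgs16 window held a PU.1 match from -220 to -215 on the opposite strand, a motif found in 28.3% of all windows. The Rgs10 window held no match. The full cAMP response element (1.79% of all windows), the AP-1 site (7.81%), the TATA box (13.6%) and the NF-κB consensus (8.46%) were matched in none of these 3 windows. The windows of Rgs2, Rgs10 and Rgs16 had a GC content of 70%, 76% and 66%, against a median of 52.7% over all windows.

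Rgs1 had the highest level of the 8 genes in every group, and Rgs3 and Rgs16 the lowest. The Rgs1 mean was 53.2 FPKM in Control, 50.6 in Model and 82.3 with muscone. The gene length used for Rgs1 in the deposited table was 6947 bases, which is the whole span of the gene, introns included. On the median length of its coding transcripts, 2125 bases, the Rgs1 level would be 174 FPKM in Control, 165 in Model and 269 with muscone. On that scale Rgs1 was still the highest of the 8 genes, followed in Control by Rgs10 with 62.8, Rgs2 with 35.4 and Rgs19 with 29.7 FPKM.

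**Figure D1:**
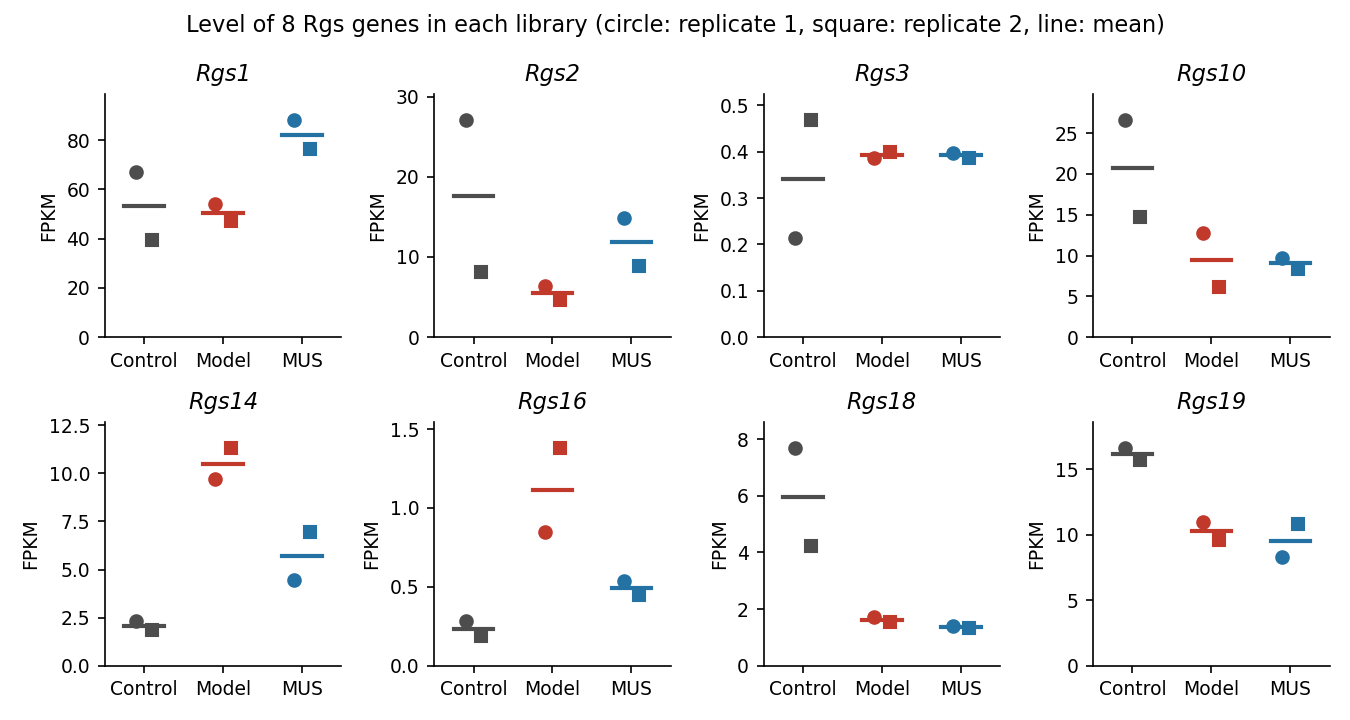
FPKM (linear axes that start at 0 and differ between panels) of the 8 Rgs genes in each library, with circles for replicate 1, squares for replicate 2 and a line at the group mean. Rgs14 and Rgs16 lie lowest in Control and highest in Model with MUS between them, Rgs18 and Rgs19 lie highest in Control, and Rgs1 lies highest in MUS.

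LPS and ATP were compared with no treatment to see which of these regulators differ in activated cells. No library had LPS alone or ATP alone, so their parts in a difference cannot be told apart. In Model vs. Control, Rgs14 was higher and Rgs18 was lower, and these were the 2 DEGs of the 6 genes tested. Over all genes tested, 15.1% were DEGs in this comparison, 9.5% higher and 5.56% lower. At an unadjusted p under 0.05 were 5 of the 6 genes (Rgs2, Rgs10, Rgs14, Rgs18 and Rgs19), against 33.6% of all genes. The libraries of the 2 groups did not overlap for 1 tested gene that was higher (Rgs14) and 4 that were lower (Rgs2, Rgs10, Rgs18 and Rgs19), against 61.1% of all genes in either direction. In these bulk samples, fewer cells of a type and less RNA per cell cannot be told apart.

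Muscone was compared within LPS and ATP. No Rgs gene was a DEG in MUS vs. Model, and 0% of all genes were: limma gave 0 DEGs among 9794 genes, with 825 genes (8.42%) at an unadjusted p under 0.05, and voom on recovered fragments also gave 0. The paper, with another test (DESeq2) at the same thresholds, reported DEGs in this comparison, so the 0 belongs to the present fits. Over all genes there were 31 DEGs without Model replicate 2, 5 each without Control replicate 1 and without Control replicate 2, 4 with the replicate block, 7 in a fit of the 2 groups alone and 1 with a pseudocount of 0.1, with no Rgs gene among them. Among the Rgs genes, 1 had an unadjusted p under 0.05 (Rgs14, lower in MUS). The libraries did not overlap for 2 tested genes that were higher in MUS (Rgs1 and Rgs2) and 2 that were lower (Rgs14 and Rgs18), against 42.1% of all genes. In MUS vs. Control 2 of the 6 genes were DEGs, Rgs14 higher and Rgs18 lower, against 20.2% of all genes, 11.3% higher and 8.91% lower. At an unadjusted p under 0.05 were 4 of the 6 (Rgs10, Rgs14, Rgs18 and Rgs19), against 39.7% of all genes, and the libraries did not overlap for 2 higher genes (Rgs1 and Rgs14) and 3 lower ones (Rgs10, Rgs18 and Rgs19), against 73.3% of all genes. Each pair of comparisons shares a group of libraries, so their values are set side by side and not counted as separate evidence.

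**Figure D2:**
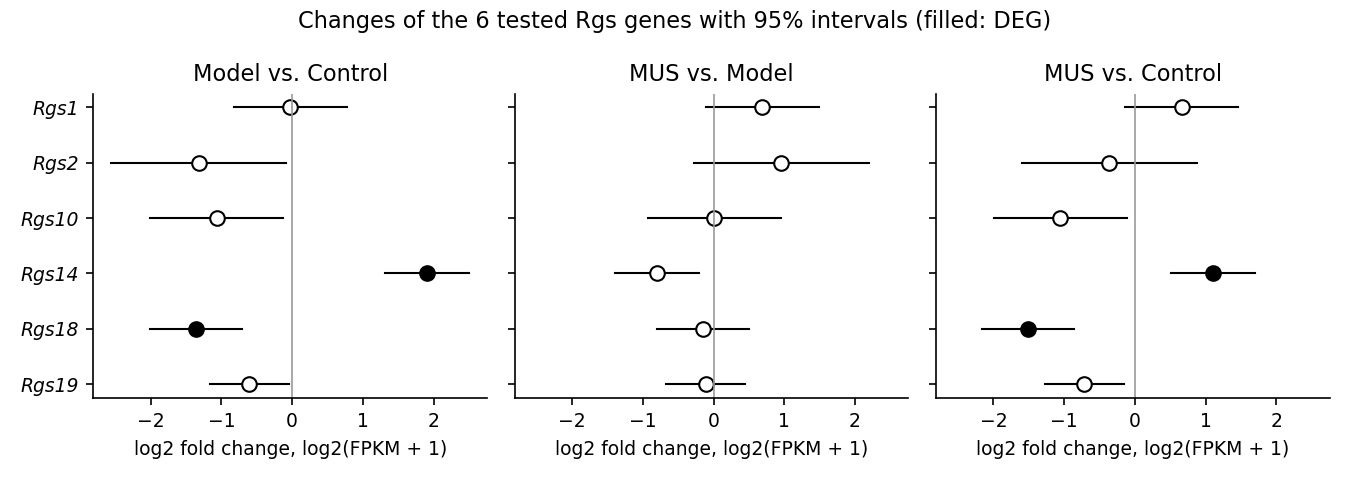
Log2 fold changes on log2(FPKM + 1) of the 6 tested Rgs genes in the 3 comparisons, with bars for 95% intervals from limma and filled circles for DEGs. Rgs14 and Rgs18 are filled in Model vs. Control and MUS vs. Control, none is filled in MUS vs. Model, and there the interval of Rgs14, -1.40 to -0.20, is the only one that leaves out 0.

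Rgs14 encodes a scaffold that joins an RGS domain with Ras-binding domains and a GoLoco motif, which holds Gαi in its GDP form. The gene lies on chromosome 13 at 55369732 to 55384687 (GRCm38, plus strand), with up to 15 exons in its coding transcript. For Rgs14 the Control libraries had 2.31 and 1.84 FPKM, the Model libraries 9.71 and 11.3, and the MUS libraries 4.46 and 6.96, from 178 to 743 fragments per library. The 3 groups did not overlap, in the order Control, MUS, Model. The mean in Model (10.5 ± 1.13, SD, n = 2) was 5.07 times that in Control (2.07 ± 0.336), with a log2 fold change of 1.91 (SE 0.25, adjusted p 0.00507 in limma). Without Control replicate 2 it was 1.79 (adjusted p 0.0127). With no filter on low values the adjusted p was 0.0501, above the threshold.

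With muscone the Rgs14 mean was 5.71 ± 1.76 FPKM (SD, n = 2), 0.543 times the Model mean. The log2 fold change in MUS vs. Model was -0.80 (SE 0.25, 95% interval -1.40 to -0.20, unadjusted p 0.0156 in limma), and the adjusted p of 0.463 missed the threshold. Leaving out 1 library moved it from -1.07 without MUS replicate 2 to -0.53 without MUS replicate 1. The MUS mean was 2.75 times the Control mean, a log2 fold change of 1.11 (SE 0.25, adjusted p 0.0222). This call rests on few libraries. It was lost without Control replicate 1 (1.22, adjusted p 0.0690), Control replicate 2 (0.99, 0.0708), MUS replicate 1 (1.38, 0.0733) or MUS replicate 2 (0.83, 0.142), and also with libraries scaled to their fragment total (0.72, 0.0916).

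Markers of some other cells also stood at different levels, and S100a8 of the neutrophil list and Lck of the T cell list were DEGs, higher in Model than in Control. Each was the only tested gene of its list. In MUS vs. Control Lck was a DEG and S100a8 was not. The summed neutrophil markers were 13.5 and 30.6 FPKM in Control, 110 and 56.5 in Model and 64.0 and 50.3 with muscone. In 3 of the 5 markers, S100a9, Ly6g and Retnlg, every library was listed at 0. Mpo stayed under 1 FPKM in all libraries, so nearly all of this sum was S100a8. The summed T cell markers were 0.120 and 0.207 FPKM in Control and 3.21 and 1.40 in Model, with 2.64 and 2.01 in MUS, and 4 of the 5, with Cd3d, Cd3e and Cd3g among them, stayed under 1 FPKM in all libraries. The part of these markers in the Rgs14 difference was not tested.

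The tested genes with the smallest root-mean-square distance to the centred log2(FPKM + 1) profile of Rgs14 over the 6 libraries were Sema4c, a transmembrane semaphorin, and Clcf1, a cytokine of the interleukin-6 family. The distance was 0.134 for Sema4c (Pearson's r 0.987) and 0.142 for Clcf1 (r 0.986), on the log2 scale. Sema4c had 0.305 and 0.400 FPKM in Control and 4.52 and 4.45 in Model, with 1.41 and 2.29 in MUS. For Clcf1 the values were 0.648 and 0.589 FPKM without treatment and 3.76 and 5.48 in Model, with 1.68 and 2.32 in MUS. Both therefore lay in the same order of groups as Rgs14, which is how they were chosen.

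Rgs10, the other R12 member, is little more than an RGS domain and is known for restraining inflammatory responses of microglia and macrophages. The gene lies on chromosome 7 at 128373621 to 128418758 (minus strand) and holds Gm15503, a processed transcript on the same strand, whose fragments may not be separable from it. For Rgs10 the Control libraries had 26.7 and 14.7 FPKM, the Model libraries 12.8 and 6.19, and the MUS libraries 9.74 and 8.35. All 4 treated libraries lay below both Control libraries, while Model and MUS overlapped. The Control mean was 2.18-fold the Model mean, and the log2 fold change of -1.07 (SE 0.40, unadjusted p 0.0314) had an adjusted p of 0.111 in limma. MUS vs. Control gave -1.06 (adjusted p 0.0945) and MUS vs. Model 0.01 (95% interval -0.93 to 0.95, adjusted p 0.996). Both differences from Control became DEGs with the replicate block, at adjusted p 0.0431 in Model and 0.0355 in MUS, and with fragment-total scaling, at log2 fold changes of -1.59 (adjusted p 0.0290) and -1.57 (0.0234). Without Control replicate 2 the differences were -1.47 (adjusted p 0.0556) and -1.46 (0.0504), and without Control replicate 1 they were -0.66 (0.422) and -0.65 (0.372). Without Model replicate 2 the difference in Model vs. Control was -0.60 (0.322), and without Model replicate 1 it was -1.54 (0.0820).

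Among the R4 members, Rgs18 is largely restricted to blood-forming cells and is abundant in platelets. Its gene lies on chromosome 1 at 144752683 to 144775435 (minus strand) and has 5 exons. For Rgs18 the Control libraries had 7.69 and 4.22 FPKM, the Model libraries 1.71 and 1.53, and the MUS libraries 1.40 and 1.33. Both Control libraries lay above all 4 others, and the MUS libraries lay just below the Model ones. The Control mean (5.95 ± 2.45, SD, n = 2) was 3.68-fold the Model mean (1.62 ± 0.130), with a log2 fold change of -1.36 (SE 0.28, adjusted p 0.0190 in limma). The mean in MUS was 1.37 ± 0.047 FPKM, and MUS vs. Control gave -1.51 (SE 0.28, adjusted p 0.0107).

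MUS and Model did not differ past the threshold for Rgs18, with a log2 fold change of -0.14 (95% interval -0.80 to 0.51, adjusted p 0.931). The Model vs. Control call was lost without Control replicate 1 (-1.0, adjusted p 0.0743), Model replicate 1 (-1.41, 0.0740), Model replicate 2 (-1.31, 0.0619), MUS replicate 1 (-1.36, 0.0533) or MUS replicate 2 (-1.36, 0.0529), and in a fit of Control and Model alone (0.0531). Without Control replicate 2 it was -1.73 (adjusted p 0.00643). The MUS vs. Control call was lost without MUS replicate 1 (-1.53, 0.0930) or MUS replicate 2 (-1.49, 0.0711), and without Control replicate 2 it was -1.88 (0.00450). With no filter on low values the adjusted p was 0.114 in Model vs. Control and 0.0753 in MUS vs. Control.

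Of 6 markers of megakaryocytes and platelets, where Rgs18 is abundant, 5 stayed under 1 FPKM in all libraries, and Gp1bb was listed at 0. Nearly all of their sum was Pf4, a chemokine that macrophages can also express, with 86.8 and 173 FPKM in Control and 273 and 129 in Model, with 131 and 105 in MUS. Pf4 was lowest in Control replicate 1, where Rgs18 was highest, and the part of these markers in the Rgs18 difference was not tested. The summed eosinophil markers were 4.17 and 2.78 FPKM in Control and 1.42 to 1.95 in the treated libraries, with Epx and Prg2 listed at 0 throughout, and their part in the Rgs18 difference was not tested. The genes closest to Rgs18 in profile were Soat1, which makes cholesterol esters (distance 0.0588, r 0.997 over 6 libraries), and Kctd17, which encodes a BTB-domain protein (0.0703, r 0.996). Soat1 had 84.9 and 54.1 FPKM in Control and 21.6 to 26.2 in the other libraries, and so shares with Rgs18 the gap between the Control libraries. Both genes were chosen for their likeness to Rgs18 over these libraries, so this is no separate observation.

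Rgs2 acts with preference on Gαq, the subunit that drives phospholipase C β, and its gene lies on chromosome 1 at 143999338 to 144004161 (minus strand). For Rgs2 the Control libraries had 27.1 and 8.13 FPKM, the Model libraries 6.37 and 4.59, and the MUS libraries 14.8 and 8.83. Both Model libraries were below all others, and the Control libraries were further apart in ratio than for the other 5 tested Rgs genes, with MUS between them. The Control mean was 17.6 ± 13.4 FPKM (SD, n = 2), 3.22-fold the Model mean of 5.48 ± 1.26. Model vs. Control gave a log2 fold change of -1.32 (SE 0.52, unadjusted p 0.0397) and an adjusted p of 0.128 in limma. With the replicate block, which compares libraries of the same number, the adjusted p was 0.0352 and Rgs2 was a DEG.

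The Rgs2 difference depended on which Control library was used. It was -2.13 (adjusted p 0.0118) without Control replicate 2 and -0.51 (adjusted p 0.487) without Control replicate 1. With fragment-total scaling it was -1.83 (adjusted p 0.0462). In MUS the mean was 11.8 ± 4.23 FPKM, 2.16-fold the Model mean, and MUS vs. Model gave 0.96 (SE 0.52, 95% interval -0.28 to 2.20, unadjusted p 0.110, adjusted p 0.697). MUS vs. Control gave -0.36 (adjusted p 0.636), with overlapping libraries. It was 0.45 (0.492), of the opposite sign, without Control replicate 1 and -1.17 (0.0675) without Control replicate 2.

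Rgs1 limits chemokine-driven migration of leukocytes, and its gene lies on chromosome 1 at 144242296 to 144249242 (minus strand). For Rgs1 the Control libraries had 66.9 and 39.5 FPKM, the Model libraries 54.1 and 47.1, and the MUS libraries 88.3 and 76.2, from 5065 to 10633 fragments. The Model libraries lay between the Control ones, and both MUS libraries lay above all others. Model vs. Control gave a log2 fold change of -0.03 (SE 0.34, 95% interval -0.83 to 0.78, adjusted p 0.962 in limma). This value depended on the scale: it was -0.57 (adjusted p 0.234) with fragment-total scaling and -0.70 (0.218) with quantile normalization. MUS vs. Model gave 0.69 (SE 0.34, 95% interval -0.11 to 1.49, unadjusted p 0.0815, adjusted p 0.668), with a MUS mean of 1.63 times that of Model. The MUS mean was 1.55 times the Control mean, a log2 fold change of 0.66 (adjusted p 0.191), which was 1.04 (0.0779) without Control replicate 1, 0.29 (0.514) without Control replicate 2, 0.13 with fragment-total scaling and 0.02 with quantile normalization. None of these passed the threshold.

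Rgs16 is an R4 member that immune cells induce on activation. For Rgs16 the Control libraries had 0.280 and 0.187 FPKM, the Model libraries 0.848 and 1.38, and the MUS libraries 0.537 and 0.447. Only 15 and 10 fragments lay behind the Control values, 28 and 50 behind those of Model, and 19 and 17 behind those of MUS. The groups did not overlap, in the same order as for Rgs14, and the ratio of means was 4.77 for Model to Control, 0.442 for MUS to Model and 2.11 for MUS to Control. The 95% Poisson intervals, which cover counting error only, ran from 0.564 to 1.23 and from 1.02 to 1.82 FPKM in Model, above the upper bounds of 0.463 and 0.344 in Control. The MUS intervals, 0.324 to 0.839 and 0.261 to 0.716, overlapped those of both Control libraries and that of Model replicate 1. The interval of Model replicate 2 lay above them. In the fit with no filter on low values the differences on log2(FPKM + 1) were 0.77 (adjusted p 0.209), -0.49 (0.671) and 0.28 (0.686) for Model vs. Control, MUS vs. Model and MUS vs. Control, so no difference passed the test at this depth. The gene lies on chromosome 1 at 153740349 to 153745468 (plus strand) and overlaps the antisense gene Gm28513, whose reads cannot be told apart from it without strand.

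Rgs3 lies on chromosome 4 at 62559847 to 62704001 (plus strand), has up to 20 exons in a coding transcript and encodes short and long isoforms. For Rgs3 the Control libraries had 0.215 and 0.469 FPKM, the Model libraries 0.387 and 0.400, and the MUS libraries 0.398 and 0.388. The 4 treated libraries were almost level and lay between the Control ones. The differences of group means on log2(FPKM + 1) were 0.06 in Model vs. Control and -0.00 in MUS vs. Model. In the fit with no filter on low values their adjusted p were 0.854 and 1. Of its 50-base stretches 11.4% also occur in Gm5763, and Gm11209 overlaps it on the other strand, so its low level is uncertain.

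Rgs19, the RZ member, acts on Gαi and Gαz and is anchored to membranes by a cysteine-rich stretch. Its gene lies on chromosome 2 at 181688419 to 181693977 (minus strand). For Rgs19 the Control libraries had 16.6 and 15.7 FPKM, the Model libraries 11.0 and 9.64, and the MUS libraries 8.28 and 10.8. The Control libraries were close together and above the 4 others, and Model and MUS overlapped. The mean was 16.2 ± 0.645 FPKM (SD, n = 2) in Control, 10.3 ± 0.936 in Model and 9.54 ± 1.78 with muscone, and no difference passed the test. The log2 fold change was -0.61 (SE 0.24, unadjusted p 0.0375, adjusted p 0.123 in limma) in Model vs. Control, -0.71 (adjusted p 0.0671) in MUS vs. Control and -0.11 (95% interval -0.67 to 0.45, adjusted p 0.941) in MUS vs. Model. With fragment-total scaling, under which the median of all genes in Model vs. Control moved from 0.04 to -0.40, the values were -1.12 (adjusted p 0.0190) and -1.22 (0.0115) against Control, both DEGs. Without Control replicate 2 they were -0.64 (adjusted p 0.175) and -0.75 (0.111).

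**Figure D3:**
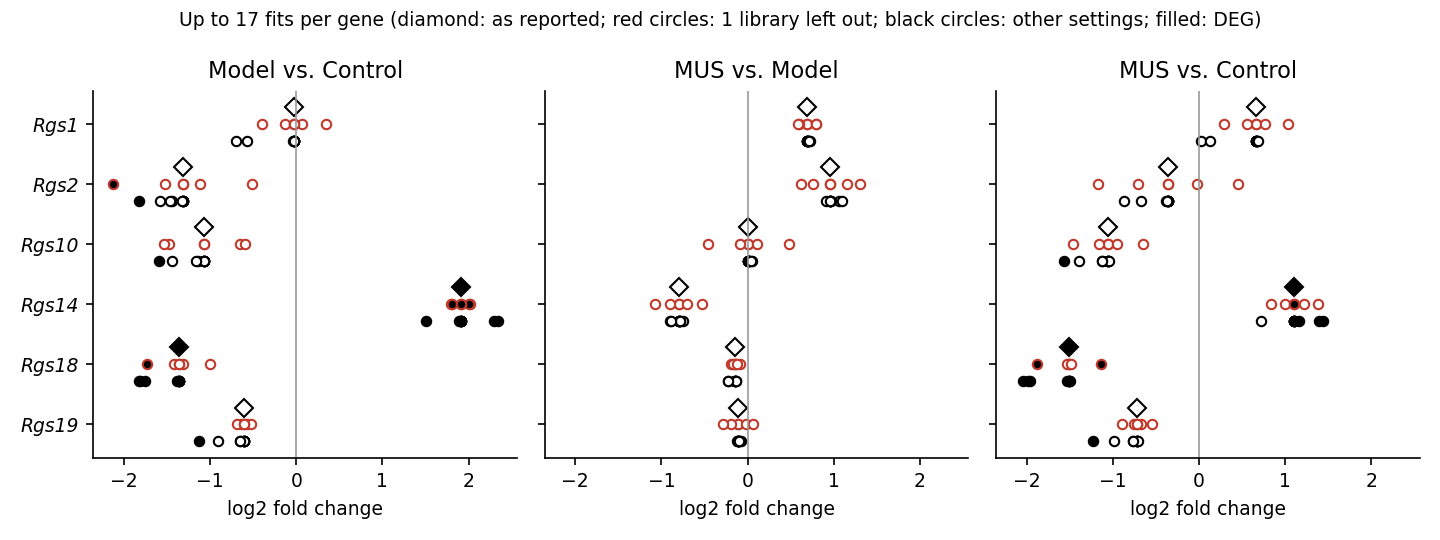
Log2 fold changes of the 6 tested Rgs genes in up to 17 fits per comparison, with diamonds for the values given above, red circles for fits with 1 library left out, black circles for other settings, and filled symbols for DEGs. Rgs14 stays higher and Rgs18 lower than Control in every fit, while Rgs2 in Model vs. Control spans -2.13 to -0.51 and no fit has a DEG in MUS vs. Model.

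Rgs2, Rgs1 and Rgs18 are neighbours. Together with Rgs13 and Rgs21 they lie in 776.1 kb of chromosome 1, from 143999338 to 144775435, where all 5 are on the minus strand and 0 of the 5 protein-coding genes is of another family. Over the 6 libraries Rgs1 had 45159 fragments, Rgs2 4841 and Rgs18 737, while the 2 genes between them had 0 (Rgs13) and 1 (Rgs21). The 3 expressed neighbours differed in pattern: Rgs18 was lower in both treated groups, Rgs2 was lowest in Model, and Rgs1 was highest in MUS, of which only the Rgs18 differences from Control passed the test.

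**Figure D4:**
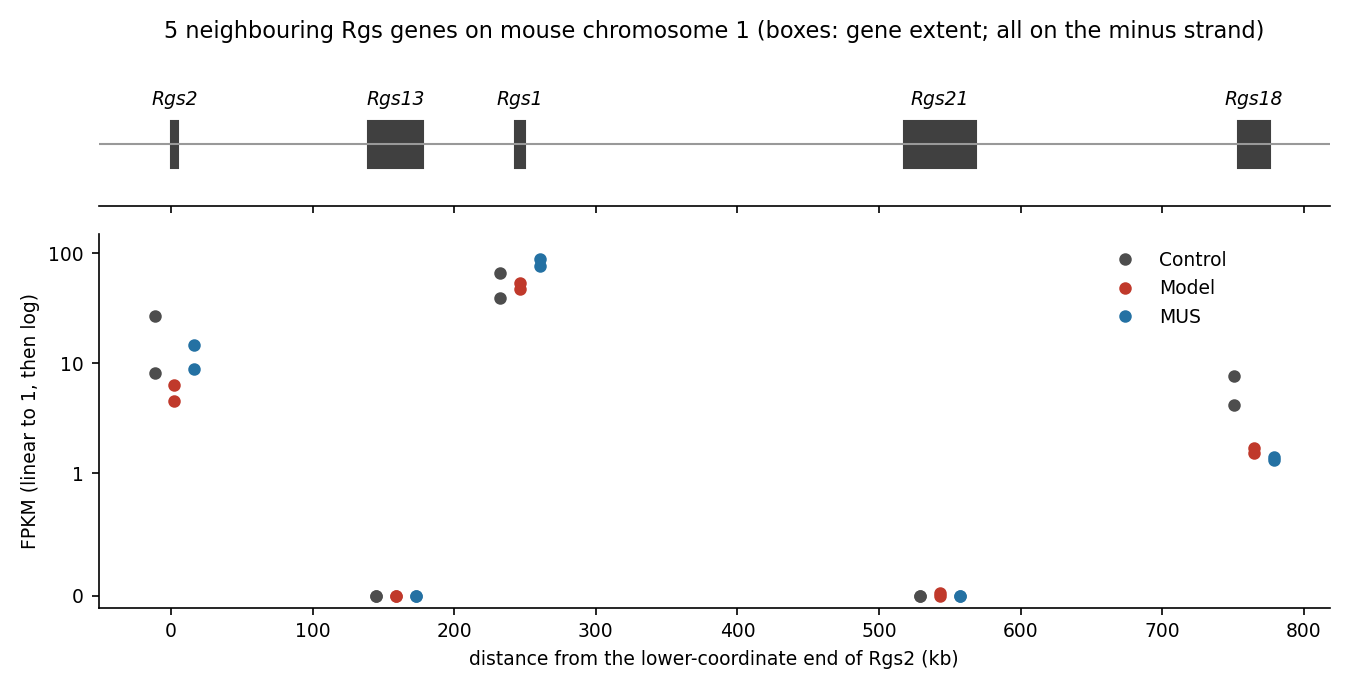
The upper panel maps the 5 Rgs genes of the cluster by distance in kb from the lower-coordinate end of Rgs2, and the lower panel gives the FPKM of each library at the position of each gene (points of the 3 groups are set side by side, and the axis is linear up to 1 and logarithmic above). Rgs1, Rgs2 and Rgs18 are expressed, with Control above the other groups only for Rgs18, while Rgs13 and Rgs21 lie at 0 or next to it.

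None of the 13 other Rgs genes in the table passed the filter. For 3 of them, Rgs5, Rgs7 and Rgs13, no library had a fragment, and 3 others, Rgs8, Rgs21 and Rgs22, had fragments only in Model replicate 1, 9 in all. Model replicate 1 had fragments on 10 of the 13 genes, against 2 to 4 in the other libraries. The highest expressed, Rgs12, had 0.133 to 0.371 FPKM.

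The genes that act beside RGS proteins were read from 8 lists with 86 genes in the table, of which 48 were tested. In Model vs. Control 3 were higher and 6 lower as DEGs and 22 had an unadjusted p under 0.05, against 9.5%, 5.56% and 33.6% of all genes, with a median log2 fold change of -0.11 against 0.04 over all genes tested. In MUS vs. Model there were no DEGs in the lists, 1 gene had an unadjusted p under 0.05, against 8.42% of all genes, and the median was 0.01 against 0.01 over all genes tested. In MUS vs. Control 3 were higher and 8 lower, 26 had an unadjusted p under 0.05, against 11.3%, 8.91% and 39.7% of all genes, and the median was -0.06 against 0.04. Without Control replicate 2 there were 4 higher and 8 lower in Model vs. Control and 6 higher and 9 lower in MUS vs. Control, while of the 9794 genes 1237 were then higher and 840 lower, and 1353 higher and 1045 lower. With fragment-total scaling 3 were higher and 17 lower in Model vs. Control, where all genes had 646 higher and 1554 lower, and 3 higher and 18 lower in MUS vs. Control, where all genes had 738 and 1953. The partner genes named next as DEGs with all 6 libraries as deposited were DEGs without Control replicate 2 as well. They were not read with any other single library left out. Control replicate 2 was the Control library with more Il1b and Tnf, so its removal does not show whether the calls rest on another library.

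Of the 8 Gα genes tested, Gna12 was lower, with 36.7 and 21.0 FPKM in Control and 8.13 and 6.78 in Model (log2 fold change -1.77, adjusted p 0.0113 in limma; -2.28 and 0.00427 in MUS vs. Control). Of the 8 Gβ and Gγ genes tested, Gnb4 was higher at 5.78 and 7.01 FPKM in Model against 0.648 and 0.685 in Control (2.14, adjusted p 0.00211), and Gng2 was lower (-1.52, 0.0111). They differed likewise in MUS vs. Control, by 2.33 (adjusted p 0.00135) and -1.53 (0.00864). Without Control replicate 2 the differences from Control were -2.16 (adjusted p 0.00396) and -2.67 (0.00190) for Gna12, 2.16 (0.00396) and 2.35 (0.00281) for Gnb4, and -1.71 (0.0140) and -1.72 (0.0127) for Gng2, in Model and MUS. The other genes of these lists were no DEGs with all 6 libraries. Gnai3 was also a DEG without Control replicate 2, in Model vs. Control (1.19, 0.0491) and MUS vs. Control (1.22, 0.0412), and Gna13 (1.13, 0.0406) and Gng12 (1.34, 0.0234) were DEGs without it in MUS vs. Control. With fragment-total scaling, Gnaq (-1.17, 0.0371) and Gngt2 (-1.35, 0.0148) were DEGs in Model vs. Control, and Gngt2, Gnai2, Gna11, Gna15 and Gnb2 in MUS vs. Control, all lower.

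The arrestins, which stop receptors from coupling to G proteins, were lower in both treated groups. Arrb1 had 7.34 and 8.33 FPKM in Control against 0.317 and 0.479 in Model, with 0.391 and 0.309 in MUS (log2 fold change -2.66, adjusted p 0.00126 in Model vs. Control, and -2.71, 0.00127 in MUS vs. Control). Arrb2 had 21.7 and 15.4 FPKM in Control and 4.58 to 5.86 in the other libraries (-1.57, adjusted p 0.00905, and -1.64, 0.00634). The list of 6 tested receptor kinases and arrestins had 2 DEGs in Model vs. Control, both lower, and 3 in MUS vs. Control, the third being the receptor kinase Grk6 (-1.36, adjusted p 0.0160). Grk6 gave -0.73 (0.120) in Model vs. Control and -0.63 (0.617) in MUS vs. Model. With Control replicate 2 left out, Arrb1 gave -2.58 (0.00191) and -2.63 (0.00172), Arrb2 -1.80 (0.00725) and -1.88 (0.00581), and Grk6 -1.44 (0.0338) in MUS vs. Control. With fragment-total scaling Grk5 and Grk6 were DEGs, lower than Control in both treated groups.

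The list of other RGS-domain proteins, which leaves out the receptor kinases, had 6 tested genes, and none was a DEG in Model vs. Control. In MUS vs. Control Arhgef1, which encodes a guanine nucleotide exchange factor, was lower (-1.39, adjusted p 0.0143 in limma). Arhgef1 gave -0.50 (0.700) in MUS vs. Model, and -1.53 in MUS vs. Control without Control replicate 2. With fragment-total scaling Arhgef1, Arhgef11 and Akap10 were DEGs in Model vs. Control, all lower. Among 4 tested genes of Gα exchange and GoLoco regulators the DEGs were Gpsm2 and Gpsm3, whose proteins hold GoLoco motifs like that of Rgs14. Gpsm2 was higher in Model (1.92, adjusted p 0.00499) and MUS (1.86, 0.00451) than in Control. Gpsm2 had 2.57 and 3.87 FPKM in Control and 15.9 and 13.9 in Model, with 15.7 and 12.7 in MUS, so that the MUS and Model libraries overlapped. Gpsm3 was lower in both (-1.82, 0.0222, and -2.65, 0.00529), with 30.3 and 14.6 FPKM in Control and 1.97 to 6.58 in the treated libraries. With Control replicate 2 left out, the differences in Model and MUS were 2.15 (0.00436) and 2.08 (0.00452) for Gpsm2, and -2.32 (0.00762) and -3.15 (0.00258) for Gpsm3.

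Downstream of the G proteins, no adenylyl cyclase was a DEG with all 6 libraries as deposited. The 2 tested were Adcy7, with 34.0 and 24.1 FPKM in Control and 11.0 to 16.3 in the treated libraries (-1.04 in Model vs. Control, adjusted p 0.0529), and Adcy9 (-0.89, adjusted p 0.0464, below the fold threshold). Adcy7 was a DEG without Control replicate 2, in Model vs. Control (-1.28, adjusted p 0.0365) and MUS vs. Control (-1.12, 0.0493), and Adcy9 was not (-0.94, 0.0651, and -0.81, 0.0863). With fragment-total scaling both were DEGs in Model vs. Control (-1.57, 0.0163, for Adcy7 and -1.23, 0.0180, for Adcy9) and in MUS vs. Control (-1.40, 0.0175, and -1.10, 0.0195). Plcb2 was the DEG among 5 tested genes of phospholipase C β and PI3Kγ, lower in Model (-1.16, adjusted p 0.0291) and in MUS (-1.20, 0.0207) than in Control, with -1.43 (0.0139) and -1.48 (0.0114) without Control replicate 2. Pde4b, which degrades cAMP, was the DEG among 9 tested genes of phosphodiesterases and PKA with all 6 libraries. It had 1.18 and 11.8 FPKM in Control and 50.1 and 57.5 in Model, with 85.5 and 65.7 in MUS (3.37, adjusted p 0.0238, and 3.85, 0.0121). Leaving out Control replicate 2, the library with 11.8 FPKM, gave 4.65 (0.000429) and 5.12 (0.000359) for Pde4b, and Prkaca was a DEG as well in Model vs. Control (-1.09, 0.0481). With fragment-total scaling Prkaca and Prkar2a were DEGs, lower than Control in both treated groups.

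**Figure D5:**
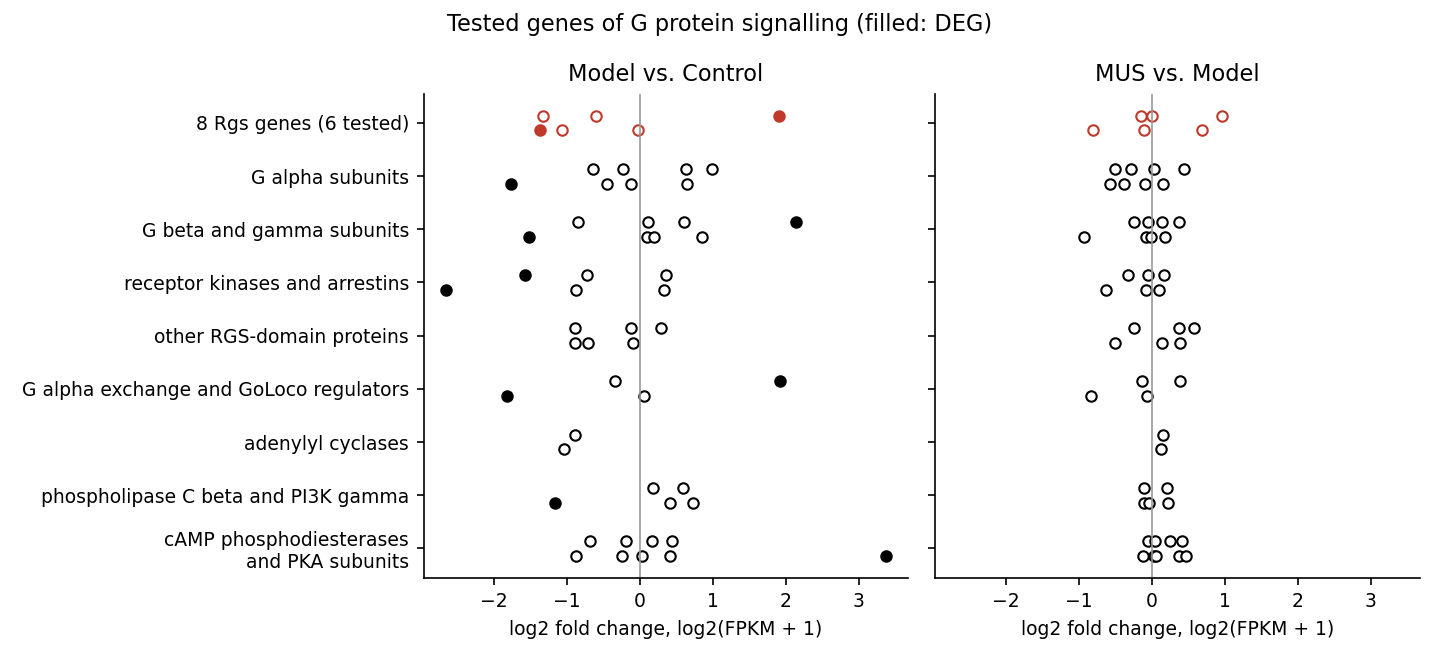
Log2 fold changes on log2(FPKM + 1) of the tested genes of each list in Model vs. Control (left) and MUS vs. Model (right), 1 circle per gene, with the Rgs genes in red and DEGs filled. DEGs of both directions stand on the left (3 higher and 6 lower among 48 genes, beside Rgs14 and Rgs18), and there is none on the right.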

How the data were processed

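RNA-seq of 6 poly(A) libraries was analysed from 1 table of 54532 genes in which the authors deposited FPKM, with 1 column per library. The paper's methods name RSEM, and the submitters' processing notes name HISAT2, featureCounts 1.5.0-p3 and GRCm39. The positions match GRCm38, since 98.3% of the 54409 gene IDs shared with GENCODE M21 start and end at the same bases. No library column was left out, and 0 columns belonged to no sample. FPKM times gene length gave whole multiples of the step of 1 fragment (within 0.1 of it) for 100% of values, so fragments per gene could be recovered. The per-million scale was 1.34 and 1.45 times the fragment total in Control and 0.909 to 0.998 times in Model and MUS, so the deposited FPKM are not scaled to the total. The scale ran nearly in step with the median-ratio size factor, which was 1.34 in both Control libraries and 0.837 to 0.951 in the others. The median-ratio alternative therefore changed little. A count of 0 allows up to 3 fragments, which is 0.131 to 0.213 FPKM for a gene of 1 kb.

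All 6 libraries entered a model of 3 groups in limma 3.58.1 (R 4.3.3; eBayes with a mean-variance trend, two-sided), fitted to the log2(FPKM + 1) values of 9794 genes that averaged at least 1 FPKM. Limma added 4.04 prior degrees of freedom, for 7.04 in all. An exact permutation test of 2 against 2 libraries cannot go below p = 0.333, so none is given. Python 3.11.15 (pandas 2.3.3, NumPy 2.4.6, SciPy 1.17.1 and Matplotlib 3.10.9) served for counts, profile distances and figures. The fit was run on simulated data as a check of the code. Pass limits were applied only to a run with less spread than these libraries had, so they do not show how the fit performs here.

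The members and gene lists were chosen with earlier results of these data known. Named genes were the 8 members, other Rgs genes past the filter, in each list the DEGs (up to 4 by absolute log2 fold change, or where there were none the 2 tested genes with the highest mean), and for each member that was a DEG in Model vs. Control the 2 genes with the nearest profile. Il1b, Tnf, marker genes, the other Rgs genes and the genes sharing sequence or overlapping were named outside this rule, as were partner genes that were DEGs in an alternative alone, after their values were seen. Levels on the length of the median coding transcript, and the partner genes without Control replicate 2, with the replicate block and with fragment-total scaling, were added after seeing the data.

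The labels call the replicate number a batch, so same-numbered libraries may form pairs. The differences between replicates 1 and 2 correlated across genes at 0.119 between Control and Model, 0.136 between Model and MUS and -0.0928 between Control and MUS. A replicate block was fitted as an alternative. The other alternatives were the pseudocount (0.1), the filter (none, or 5 FPKM), fits of 2 groups, no trend, quantile, median-ratio and fragment-total scaling, voom on recovered fragments, and leaving out each library. Intervals and floors cover counting error only.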

Additional observations from a re-analysis of the deposited data

How the results depend on the processing

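Of 291 values of the Rgs genes recomputed under 16 alternatives, 259 kept direction and side of the threshold, 9 passed it in the alternative alone, 17 lost it and 6 changed sign. The filter, the fits of 2 groups, the replicate block and no trend leave the log2 fold change as it was by construction. So does leaving out a library of the third group, and in all these fits the direction could not change. Rgs3 and Rgs16 had no adjusted p in the main fit and so no side of the threshold to keep. Against 2 DEGs among the Rgs genes in Model vs. Control, there were 0 without the filter on low values, 1 with a filter at 5 FPKM (which removes Rgs18), 1 in a fit of the 2 groups alone, 5 with fragment-total scaling, and 1 to 3 when 1 library was left out. With the replicate block, the fit that pairs libraries of the same batch, there were 4, as Rgs2 and Rgs10 were added. Against 2 in MUS vs. Control, there were 0 without the filter, 1 with the filter at 5 FPKM, 3 with the replicate block, 3 with fragment-total scaling and 0 to 2 when 1 library was left out. MUS vs. Model gave 0 throughout, while over all genes it gave 1 DEG with a pseudocount of 0.1, 4 with the replicate block, 7 in a fit of the 2 groups alone, 5 each without Control replicate 1 and without Control replicate 2 and 31 without Model replicate 2 (19 higher and 12 lower). The block changed no other call of these genes.

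A sign turned only when a library was left out: Rgs1 in Model vs. Control (-0.03) then ranged from -0.40 to 0.35 (0.35 without Control replicate 1, 0.07 without Model replicate 2), Rgs2 in MUS vs. Control (-0.36) from -1.17 to 0.45 (without Control replicate 1), Rgs10 in MUS vs. Model (0.01) from -0.46 (without Model replicate 2) to 0.48, with -0.09 without MUS replicate 1, and Rgs19 in MUS vs. Model (-0.11) from -0.28 to 0.064 (without MUS replicate 1). In such fits the lone library is assumed to vary like the other groups. The cause of these changes was not tested. With 2 libraries per group, intervals were wide: for Rgs2 in MUS vs. Model the 95% interval ran from -0.28 to 2.20. A mean under 1 FPKM left Rgs3 and Rgs16 at 10 to 116 fragments per library.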
